A study of Mus musculus with 3 samples.

Results

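The Wnt ligands and their receptors were examined in open chromatin of hair follicle stem cells (HFSCs). The members were the protein-coding genes whose symbol is Wnt or Fzd followed by a digit, plus Lrp5 and Lrp6, which gave 31 of 21851 protein-coding genes on chromosomes 1 to 19, X and Y: 19 ligands, 10 Frizzled receptors and 2 co-receptors. Accessible DNA was profiled with Omni-ATAC-seq, an assay that uses the transposase Tn5 to tag exposed DNA with sequencing adapters. The cells were sorted as CD34+ CD49f+ Sca-1- from dorsal skin of mice aged 6 months, at rest in the hair cycle (telogen). The Msx2-KO mice were homozygous for an Msx2 allele with a neo cassette placed upstream of exon 2, a germline change carried by every tissue, and the Msx2-WT controls were C57BL/6J mice matched for hair cycle. No treatment was given to either group.

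There was 1 Msx2-WT library and there were 2 Msx2-KO libraries (replicates 1 and 2), and the labels do not say whether the Msx2-KO libraries came from separate animals. No test between genotypes was possible, and no p-value is given. By the labels, the Msx2-WT library formed a batch of its own and the Msx2-KO libraries shared a different batch, so that batch cannot be told apart from genotype. Peaks of the Msx2-KO lists are named with the letters cKO, a term that the labels do not use, and the labels were followed. A tag is a read counted at a peak summit. Depth was measured by the most frequent local background, 1.74 tags for Msx2-WT and 0.476 and 0.79 for replicates 1 and 2 of Msx2-KO. Msx2-WT was thus 3.65 times as deep as replicate 1 and 2.2 times as deep as replicate 2, and the weakest peak past the limit held 9 tags in Msx2-WT against 5 and 6 in the Msx2-KO libraries. The Msx2 promoter carried a peak in every library (15, 9 and 16 tags), which gives no check of the labels, since an inserted cassette need not close a promoter.

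Wnt proteins are secreted, lipid-modified ligands that bind a Frizzled receptor together with the co-receptor Lrp5 or Lrp6. In the canonical branch the bound pair holds back the complex that destroys beta-catenin, which then enters the nucleus and acts with TCF/LEF factors on target genes. In the resting follicle the pathway is known as a trigger of stem cell activation and hair growth, with ligands made by the epithelium itself and by the dermal papilla. A promoter peak, here a summit with a −log10 q above 2.0 at most 1500 bases from where a protein-coding transcript begins, shows that this DNA was open to the transposase, and it does not measure how much RNA or protein is made.

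The DNA under the strongest promoter summit is printed for 6 members chosen by their promoter state. Each stretch is 121 bases centred on the summit of the Msx2-WT library, on the gene's strand in GRCm38, from the RefSeq genome. Fzd7 (chr1:59481990-59482110) and Lrp6 (chr6:134567075-134567195) stand for the receptors open in all 3 libraries and Wnt6 (chr1:74773229-74773349) is the ligand that shared this state. Fzd10 (chr5:128600706-128600826), Wnt10a (chr1:74791580-74791700) and Wnt10b (chr15:98776419-98776539) had a promoter peak in Msx2-WT alone. The seventh stretch, within an intron of Wnt4 (chr4:137282931-137283051, plus strand), lies under the strongest summit found at any ligand gene. Capitals mark CG dinucleotides, of which the windows hold 9 at Fzd7, 20 at Lrp6, 4 at Wnt6, 8 at Fzd10, 4 at Wnt10a, 15 at Wnt10b and 2 in the Wnt4 intron.
Fzd7: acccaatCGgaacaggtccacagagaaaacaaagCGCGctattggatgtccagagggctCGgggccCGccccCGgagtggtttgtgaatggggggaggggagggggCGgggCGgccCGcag
Lrp6: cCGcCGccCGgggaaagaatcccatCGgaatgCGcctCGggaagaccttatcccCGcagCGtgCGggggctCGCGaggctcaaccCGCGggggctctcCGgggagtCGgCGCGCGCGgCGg
Wnt6: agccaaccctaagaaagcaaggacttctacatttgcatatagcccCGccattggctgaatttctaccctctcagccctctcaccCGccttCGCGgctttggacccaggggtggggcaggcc
Fzd10: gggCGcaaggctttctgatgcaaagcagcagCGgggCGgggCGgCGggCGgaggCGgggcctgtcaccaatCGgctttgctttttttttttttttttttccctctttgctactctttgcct
Wnt10a: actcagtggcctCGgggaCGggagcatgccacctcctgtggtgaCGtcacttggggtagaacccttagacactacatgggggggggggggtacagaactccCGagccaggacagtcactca
Wnt10b: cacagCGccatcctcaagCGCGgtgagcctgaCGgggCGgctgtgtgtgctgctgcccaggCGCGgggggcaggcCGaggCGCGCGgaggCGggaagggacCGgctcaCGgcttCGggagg
Wnt4 intron: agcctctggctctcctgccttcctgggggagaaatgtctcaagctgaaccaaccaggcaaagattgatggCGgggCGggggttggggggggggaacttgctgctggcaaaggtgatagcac

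Receptor promoters were mostly open and ligand promoters mostly were not. Of the 12 receptors and co-receptors, 10 were open at the promoter in Msx2-WT, 8 in replicate 1 and 11 in replicate 2 of Msx2-KO (83.3%, 66.7% and 91.7%). Of the 19 ligands, 6 were open in Msx2-WT, 1 in replicate 1 and 9 in replicate 2 (31.6%, 5.26% and 47.4%). Over all protein-coding genes the shares were 47.1%, 37.9% and 53.7%, so at this limit the receptors lay above and the ligands below the share of all genes in each of the 3 libraries. When every deposited peak was kept, the ligands lay above it in Msx2-WT (12 of 19 against 58.8% of all genes) and in replicate 2 (13 of 19 against 61.9%). Genes are not replicates of a class, and no test between ligands and receptors was run. The order of ligands and receptors held under each of the other limits tried. With the libraries thinned to the background of replicate 1, 8, 8 and 10 receptors and co-receptors kept a promoter peak against 3, 1 and 5 ligands; this matched the background alone, and the shares of all genes were then 30.2%, 37.9% and 46.6%.

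**Figure D1:**
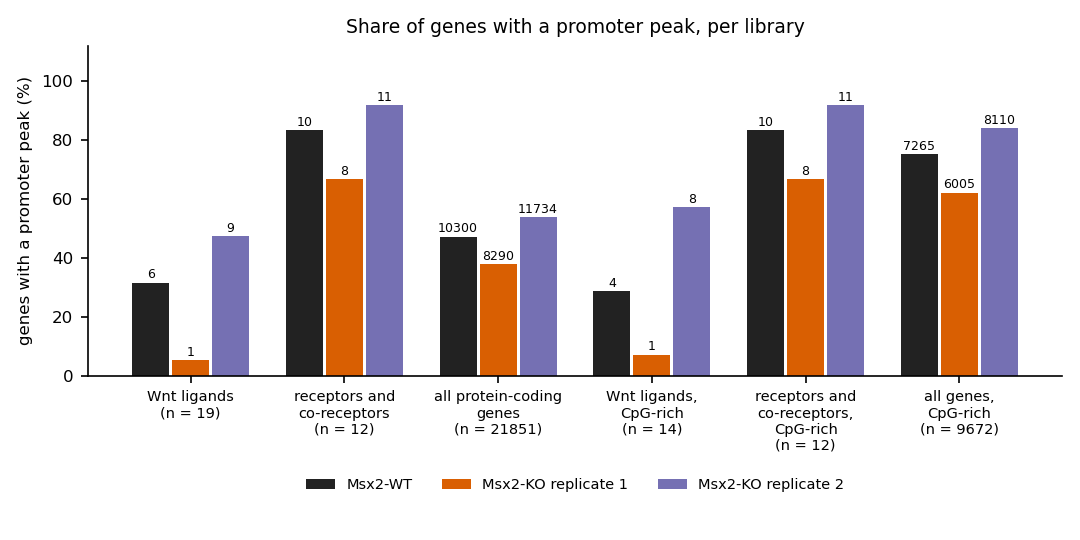
Bars give the percent of genes with a promoter peak (y axis) in Msx2-WT, Msx2-KO replicate 1 and Msx2-KO replicate 2, with the number of such genes above each bar and the number in each set under it. In the first 3 sets the receptors stand at 83.3%, 66.7% and 91.7% and the ligands at 31.6%, 5.26% and 47.4%, and the last 3 sets keep only genes with a CpG-rich start site.

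The classes also differed somewhat in the base composition of their start sites, and the part of composition in the class difference was not tested. Promoters rich in CG dinucleotides are open in most cell types, and a start site was called CpG-rich where the 250 bases on each side held at least 55% G+C and a CpG ratio, observed over expected, of at least 0.6. All 12 receptors and co-receptors and 14 of 19 ligands (73.7%) met this, compared with 44.3% of all genes, so that the members with a CpG-poor start site were all ligands. The median G+C was 67.9% for ligands and 70.3% for receptors and co-receptors, against 57.1% for all genes. Among genes with CpG-rich start sites a promoter peak was found in 75.1% in Msx2-WT, 62.1% in replicate 1 and 83.9% in replicate 2. The CpG-rich ligands were open in 4, 1 and 8 of 14 cases and thus lay under these shares in each library, and the receptors, with 10, 8 and 11 of 12, lay a little above them. The ligand closed in all 3 libraries with the highest G+C was Wnt3a, at 79.8%, above all receptors. Conversely Wnt7b and Wnt10a had a peak although their CpG ratios were 0.361 and 0.399. With stricter limits (65% and 0.8, chosen after the data were seen) 3, 1 and 7 of 8 ligands were open against 7, 5 and 8 of 9 receptors and 76.3%, 65.3% and 86.4% of all such genes, so that the ligands of Msx2-KO replicate 2 no longer lay under the share of all genes and the receptors of replicate 1 no longer lay above it.

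**Figure D2:**
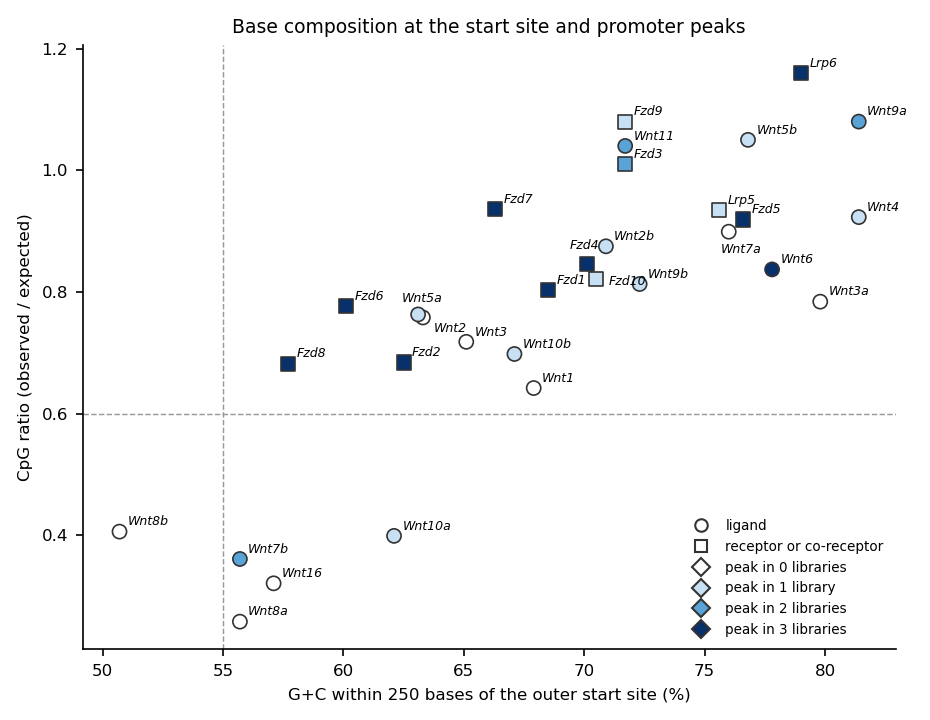
Each point is a member placed by its G+C percent (x axis) and CpG ratio (y axis) within 250 bases of its outer start site, circles for ligands and squares for receptors and co-receptors, with darker fill for a promoter peak in more libraries and dashed lines at the limits of 55% and 0.6. Members without a promoter peak, such as Wnt3a at 79.8% G+C, lie among members with a peak in all 3 libraries.

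Where a promoter was open, the receptors also held more tags than the ligands. In Msx2-WT the open receptor promoters held a median of 30 tags (15 to 50) and the open ligand promoters 12.5 (9 to 21), beside a median of 24 over all open promoters. In Msx2-KO replicate 1 the receptors held 22 (8 to 34), the only open ligand, Wnt6, held 5, and the median of all was 13. In Msx2-KO replicate 2 the medians were 27 for receptors (6 to 46), 9 for ligands (6 to 12) and 21 for all. The strongest ligand promoter of each library thus held fewer tags than the median open promoter of that library. To set libraries of different depth side by side, each tag number was divided by the median over the 7701 genes with a promoter peak in all 3 libraries, which was 29 tags in Msx2-WT, 13 in replicate 1 and 29 in replicate 2. These medians were 16.7, 27.3 and 36.7 times the background of each library, so that the deeper Msx2-WT library stood lower over its background than either Msx2-KO library. The relative tag number takes the shared promoters as equal between libraries.

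**Figure D3:**
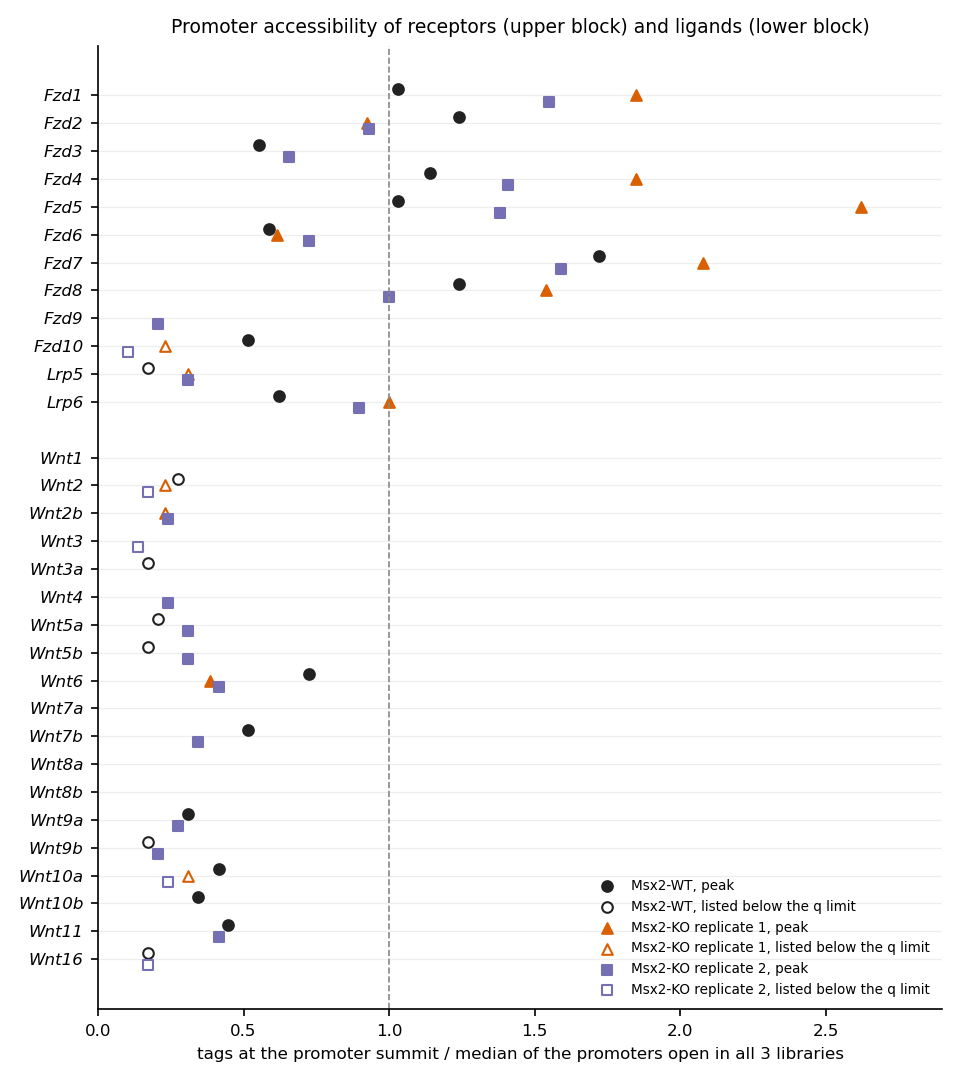
Each member is a line, receptors and co-receptors above and ligands below, with the tags at its strongest promoter summit relative to the median of the promoters open in all 3 libraries on the x axis. Filled symbols are peaks past the limit, open symbols are summits listed below it, and members without a symbol for a library had no listed promoter summit there. Fzd5 reaches 2.62 in Msx2-KO replicate 1 and Fzd7 at least 1.59 in each library, whereas no ligand passes 0.724.

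Of the 31 members, 9 had a promoter peak in all 3 libraries (29.0%), against 35.2% of all genes: 8 of 12 receptors and co-receptors and 1 of 19 ligands. They were Fzd1, Fzd2, Fzd4, Fzd5, Fzd6, Fzd7, Fzd8, Lrp6 and Wnt6. Fzd7, a receptor known from stem cells of the gut, had the largest promoter tag number of all members in Msx2-WT and Msx2-KO replicate 2: 50 tags for Msx2-WT (37.1 to 65.9, 95% Poisson), 27 in replicate 1 (17.8 to 39.3) and 46 in replicate 2 (33.7 to 61.4). Relative to the shared promoters these are 1.72, 2.08 and 1.59, all above 1 and close to each other. The Fzd7 window printed above sits 374 bases upstream of the start in Msx2-WT, with summits 434 and 419 bases upstream in the Msx2-KO libraries, and holds CCAAT on both strands. All Poisson intervals cover counting error only, and duplicate reads, which the authors kept, are not independent molecules.

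Fzd5, needed for blood vessels of the yolk sac, held 30 tags in Msx2-WT (20.2 to 42.8), 34 in replicate 1 (23.5 to 47.5) and 40 in replicate 2 (28.6 to 54.5). Its relative tag number was 1.03 in Msx2-WT and higher in both Msx2-KO libraries, 2.62 and 1.38, a ratio to Msx2-WT of 2.53 (1.5 to 4.28) in replicate 1 and of 1.33 (0.81 to 2.22) in replicate 2. Only the first of these intervals lies above 1, and the Msx2-KO libraries themselves differed. Fzd1 held 30, 24 and 45 tags (relative 1.03, 1.85 and 1.55), with ratios to Msx2-WT of 1.78 (0.998 to 3.16) and 1.5 (0.924 to 2.47). Fzd4, which also serves as the receptor for norrin in the vessels of the retina, held 33, 24 and 41 tags, with ratios of 1.62 (0.918 to 2.83) and 1.24 (0.766 to 2.03). Its promoter lies within the gene Tmem135, so that the peak cannot be assigned to Fzd4 with certainty. Both genes stood higher in both Msx2-KO libraries, with intervals that include 1.

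For the other receptors open in all 3 libraries, the intervals of the ratios to Msx2-WT all include 1. By relative tag number Fzd2 stood lower in both Msx2-KO libraries, Fzd6 and Lrp6 higher in both, and Fzd8 on either side of Msx2-WT. Fzd2 held 36 tags in Msx2-WT, 12 in replicate 1 and 27 in replicate 2 (ratios 0.744 and 0.75), and Fzd8, whose ectodomain is widely used to trap Wnts, held 36, 20 and 29 (ratios 1.24 and 0.806). Fzd6, which orients hair follicles in mouse skin, held 17 tags in Msx2-WT, 8 in replicate 1 and 21 in replicate 2. It was the weakest receptor open in all 3 libraries, with relative tag numbers of 0.586, 0.615 and 0.724. Lrp6, the main co-receptor in the mouse embryo, held 18 tags (10.7 to 28.4), 13 (6.92 to 22.2) and 26 (17.0 to 38.1). Its ratios to Msx2-WT were 1.61 (0.726 to 3.48) and 1.44 (0.762 to 2.8), higher in both Msx2-KO libraries but with intervals that include 1.

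Wnt6 differed from these receptors in both level and place. It held 21 tags in Msx2-WT (13.0 to 32.1), 5 in replicate 1 (1.62 to 11.7) and 12 in replicate 2 (6.2 to 21.0), or 0.724, 0.385 and 0.414 relative to the shared promoters. The ratios to Msx2-WT were 0.531 (0.156 to 1.45) and 0.571 (0.256 to 1.22), lower in both Msx2-KO libraries with intervals that include 1. The summit lay 1397 bases inside the gene in Msx2-WT, 1395 in replicate 1 and 1364 in replicate 2, within an intron, and no library had a peak at the start itself. The printed window at this place holds 4 CG dinucleotides, whereas the start site of the gene is CpG-rich at 77.8% G+C. Of the 9 members, 0 were over 2-fold apart from Msx2-WT in the same direction in both Msx2-KO libraries. Of the 7701 genes open in all 3 libraries, 3.58% were over 2-fold higher and 2.08% over 2-fold lower in both.

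Peaks in receptor promoters lay at the start site and those of ligands often did not. The strongest promoter summit was within 500 bases of a start site in 10 of 10 open receptors and co-receptors in Msx2-WT, 8 of 8 in replicate 1 and 11 of 11 in replicate 2. For ligands it was 2 of 6, 0 of 1 and 6 of 9, and for all open promoters 91.2%, 92.1% and 90.7%. The median distance in Msx2-WT was 642 bases for ligands, 77.5 for receptors and co-receptors and 78.0 for all genes. In Msx2-WT the ligands near a start site were Wnt10a, 124 bases inside the gene, and Wnt7b, 133 bases before a start. Wnt10b lay 550 bases past a start, Wnt11 734 bases before a start inside the gene, and Wnt9a 1085 bases inside it.

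Fzd10, Wnt10a and Wnt10b had a promoter peak in Msx2-WT alone, 3 of 31 members against 2.11% of all genes, and 0 members showed the opposite state, open in each Msx2-KO library but closed in Msx2-WT, against 2.32%. Fzd10 is a receptor that HFSCs are known to raise, together with Wnt7b, when BMP signalling is removed. Its promoter held 15 tags in Msx2-WT (8.4 to 24.7), 78 bases upstream of the start, whereas both Msx2-KO libraries listed only a summit of 3 tags (0.619 to 8.77), below the limit and 615 and 242 bases inside the gene. An equal relative density would have given 6.72 tags in replicate 1 and 15 in replicate 2. The ratio to Msx2-WT was 0.446 in replicate 1 and 0.2 in replicate 2. These promoters were picked for a peak in Msx2-WT alone, which favours low ratios, so their ratios are descriptions and support no difference. The Fzd10 start site is CpG-rich (70.5% G+C), and the window printed above contains a CCAAT box.

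Wnt10a, whose loss in people and mice impairs teeth, hair and sweat glands, held 12 tags in Msx2-WT (6.2 to 21.0) at a −log10 q of 2.42, close to the limit. Replicate 1 listed 4 tags and replicate 2 listed 7, below the limit and at other positions, 493 and 819 bases inside the gene. The ratios to Msx2-WT were 0.744 (0.175 to 2.45) and 0.583 (0.195 to 1.61), with intervals that include 1. They compare summits at different places. Wnt10b, a ligand that promotes hair growth, held 10 tags in Msx2-WT (4.8 to 18.4), and neither Msx2-KO list held a promoter summit, although an equal relative density would have given 4.48 tags in replicate 1, under its weakest peak of 5, and 10 in replicate 2. Summits were listed down to 3 tags in both Msx2-KO libraries. The 3 names also depended on the peak limit. Fzd10 alone had this state at a −log10 q of at least 5, Fzd10 and Wnt7b with lists of equal length, Wnt3a and Wnt10b with every deposited peak, and Wnt7b and Wnt10b after thinning to the background of replicate 1, where Msx2-WT no longer had a peak at Fzd10 or Wnt10a. The thinning was a single random draw of tags, so that another draw could name other genes.

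Some markers of other epidermal cells, Ivl, Krt10 and Ly6a, were also open in Msx2-WT alone. Of 10 HFSC markers 8, 7 and 9 had a promoter peak in Msx2-WT, replicate 1 and replicate 2, with summed promoter tags of 195, 79 and 218. Krt14, Krt5, Sox9, Lhx2, Foxc1 and Itga6 were open in all 3 libraries and Nfatc1 in none. Krt15 (27 and 23 tags) and Cd34 (12 and 16) were open in Msx2-WT and replicate 2. Tbx1 went the other way, open in both Msx2-KO libraries (8 and 15 tags) and not in Msx2-WT. The dermal marker Col1a2 shared this state (9 and 16 tags). Of 5 markers of differentiated epidermis, 2 were open in Msx2-WT (Ivl with 15 tags and Krt10 with 10) and 0 in either Msx2-KO library, with summed tags of 25, 0 and 0, and Krt1, Lor and Flg had no promoter peak in any library. Ly6a, the gene of Sca-1, which the sort selected against, held 12 tags in Msx2-WT and no promoter peak in the Msx2-KO libraries. The promoters of Ivl, Krt10 and Ly6a had the same state as those of Fzd10, Wnt10a and Wnt10b, and their part in the result was not tested. All were named for this state, so that sharing it adds no support. Their tag numbers were also low, with 9 tags at the weakest Msx2-WT peak. For other lineages, dermal fibroblast and papilla markers were open in 2, 1 and 3 of 5 cases, melanocyte markers in 2, 2 and 2 of 5 (Pmel and Dct; Sox10, Tyr and Mlana in none), endothelial markers in 0, 0 and 1 of 4 and leukocyte markers in 0 of 5 in each library. In bulk samples, a change in the share of a cell type and a change within cells cannot be told apart.

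Of the other 19 members, 11 were open in Msx2-KO replicate 2, with or without Msx2-WT, and 8 in no library. The state of Msx2-WT and replicate 2 was shown by 4 members and by 9.64% of all genes. Fzd3, known for its role in guiding axons, held 16 tags in Msx2-WT (9.15 to 26.0) and 19 in replicate 2 (11.4 to 29.7), with no summit listed in replicate 1. Wnt7b, a ligand that HFSCs make at the onset of growth, held 15 and 10 tags, Wnt11 held 13 and 12, and Wnt9a held 9 and 8 in the same libraries, again with none listed in replicate 1. The Wnt9a peaks lay apart, 1085 bases inside the gene in Msx2-WT and 219 bases upstream in replicate 2, and neither place was a peak in both. At Wnt7b the strongest summits lay in different regions, each a peak in both libraries. These 4 members, like the 3 above, had no promoter peak in the shallowest library. Replicate 2 alone had a promoter peak at Wnt2b, Wnt4, Wnt5a, Wnt5b, Wnt9b, Fzd9 and Lrp5 (7 of 31 members, or 22.6%, against 6.5% of all genes), all with 6 to 9 tags. In Msx2-WT a summit of 5 or 6 tags was listed below the limit within the promoter windows of Wnt5a, Wnt5b, Wnt9b and Lrp5. At the replicate 2 peaks themselves, Msx2-WT listed 5 tags below the limit for Wnt5a, Wnt9b and Lrp5 and none for Wnt5b. The Wnt5b summit of Msx2-WT lay elsewhere, 991 bases upstream of the gene, and the Wnt5a summit of 6 tags 1371 bases upstream. No summit was listed in Msx2-WT at Wnt2b, Wnt4 and Fzd9. All 7 tag numbers are at or under 9, that of the weakest Msx2-WT peak, so that the missing peaks in Msx2-WT do not show a difference. Wnt1, Wnt2, Wnt3, Wnt3a, Wnt7a, Wnt8a, Wnt8b and Wnt16 had no promoter peak in any library (8 of 31 members, or 25.8%, against 43.8% of all genes). Of them Wnt2 came nearest, with summits of 8, 3 and 5 tags below the limit, and Wnt1, Wnt7a, Wnt8a and Wnt8b had no listed promoter summit at all.

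Over whole gene regions, from 10 kb before the gene to its end, the receptors and co-receptors again stood above the ligands in each library. The ligand regions held 23 summits in Msx2-WT, 4 in replicate 1 and 26 in replicate 2, or 3.15, 0.548 and 3.56 per 100 kb. The receptor and co-receptor regions held 26, 17 and 27 summits, or 5.37, 3.51 and 5.58 per 100 kb, and all gene regions held 2.2, 1.29 and 2.52 per 100 kb. Both classes thus exceeded the density of all genes in Msx2-WT and replicate 2, and the ligands fell below it in replicate 1. Among genes with CpG-rich start sites the ligands held 2.06, 0.686 and 3.43 per 100 kb against 2.57, 1.54 and 2.89, so below in Msx2-WT too. The densities were not adjusted for gene length. Its median was 22.2 kb for ligands, 6.58 kb for receptors and co-receptors and 17.4 kb for all genes. At least 1 summit was found at 11, 3 and 13 of 19 ligands and at 11, 10 and 11 of 12 receptors and co-receptors, compared with 60.4%, 48.6% and 65.4% of all genes. Some ligands are neighbours, namely Wnt6 and Wnt10a (6.19 kb apart), Wnt10b and Wnt1 (11.7 kb), Wnt3a and Wnt9a (16.2 kb) and Wnt9b and Wnt3 (24.3 kb), so that these loci are not independent of each other.

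Peaks that overlapped were merged into 61 regions at the members, 34 at ligands and 27 at receptors. A peak in all 3 libraries was found at 15 of 27 receptor regions (55.6%) and 3 of 34 ligand regions (8.82%), against 27.6% of 47562 regions of the genome. Msx2-WT alone had a peak at 10 ligand regions (29.4%) and 6 receptor regions (22.2%), against 18.7%. A peak shared by the Msx2-KO libraries and missing from Msx2-WT was found at 2 of 61 regions (3.28%), against 7.66%. Those 2 were introns of Lrp5 and Wnt5b. At Lrp5, a co-receptor that sets bone mass, the region chr19:3666611-3667122 held 11 tags below the limit in Msx2-WT, 11 in replicate 1 and 22 in replicate 2. At Wnt5b, a ligand of the non-canonical branch, the region chr6:119485628-119486633 held 7 tags below the limit in Msx2-WT, 6 in replicate 1 and 9 in replicate 2. In both cases Msx2-WT listed an overlapping peak below the limit, so that the missing peaks in Msx2-WT do not show a difference.

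The intron of Wnt4 stood furthest apart. Wnt4, a ligand needed in the kidney and the female reproductive tract and also made in skin epithelium, had a region 5502 bases inside the gene (chr4:137282620-137283639) with 57 tags in Msx2-WT (43.2 to 73.9), 8 in replicate 1 (3.45 to 15.8) and 19 in replicate 2 (11.4 to 29.7). Relative to the medians of the regions shared by all 3 libraries, 23, 11 and 24 tags, these are 2.48, 0.727 and 0.792. The ratio to Msx2-WT was 0.293 (0.121 to 0.618) in replicate 1 and 0.319 (0.179 to 0.545) in replicate 2. Both intervals lie below 1, and the region is described here because it stood furthest apart of 18. Among the 18 member regions with a peak in all 3 libraries it was the only region over 2-fold lower in both, and 0 were over 2-fold higher, against 3.31% and 4.83% of 13090 such regions of the genome. The Wnt4 promoter itself had a peak of 7 tags in replicate 2 and no listed summit in the other libraries. The promoters of Ivl, Krt10 and Ly6a, named above for a peak in Msx2-WT alone, differ in this from those of Krt1, Lor and Flg. Whether they have a part in the values of the Wnt4 region was not tested.

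**Figure D4:**
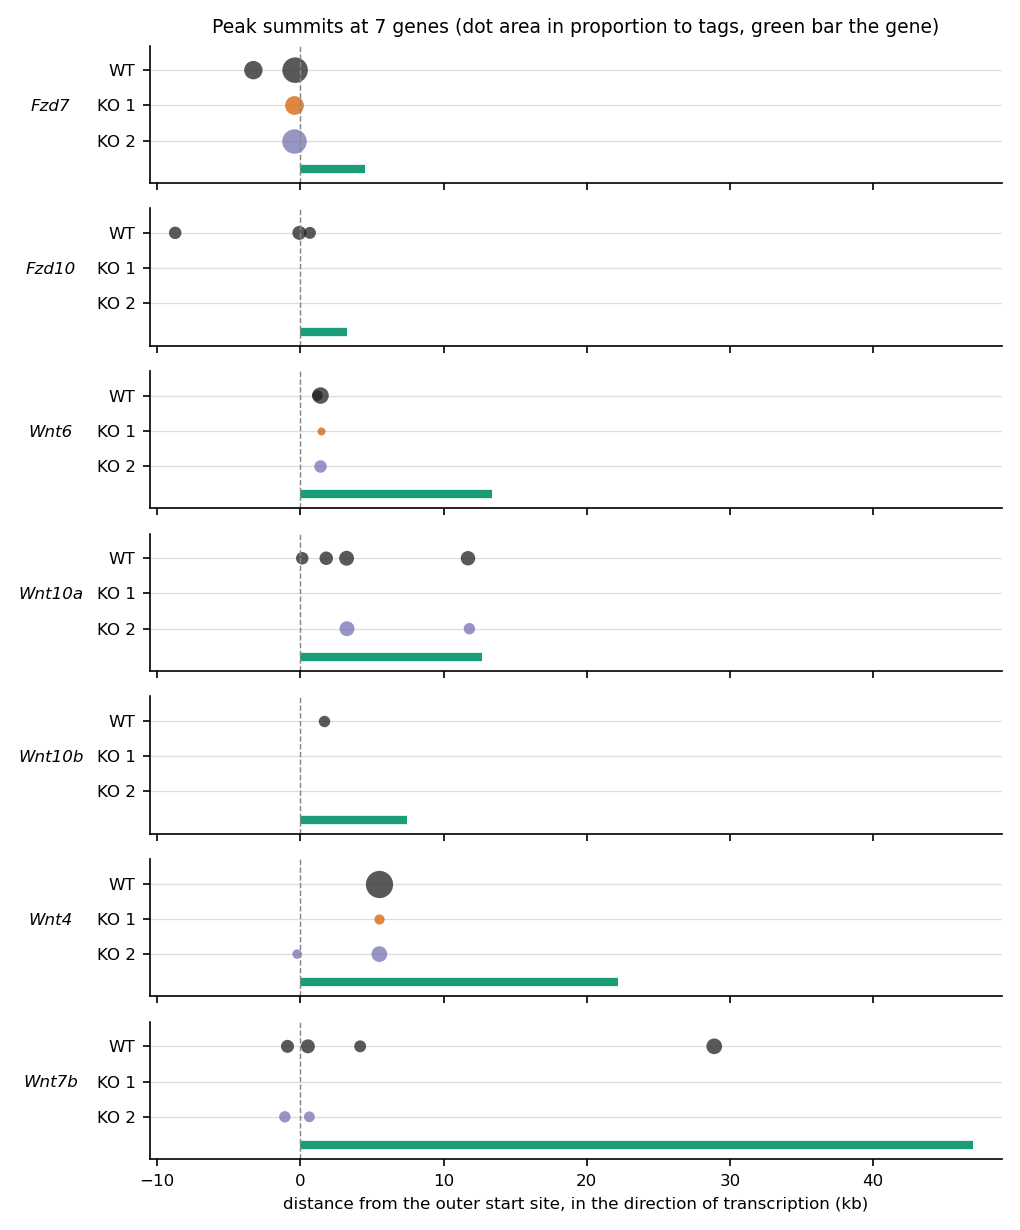
For 7 members, dots give the summits of peaks in Msx2-WT, Msx2-KO replicate 1 (KO 1) and Msx2-KO replicate 2 (KO 2) by distance in kb from the outer start site (x axis), with dot area in proportion to tags and the gene as a green bar. The tags are not adjusted for depth, and the intron summit of Wnt4 holds 57, 8 and 19 tags, whereas Fzd10 has summits in Msx2-WT alone.

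Several other members had Msx2-WT peaks beside the promoter. Fzd10 had 3 regions, 8750 bases upstream (12 tags), at the start (15) and 661 bases inside the gene (11), each a peak in Msx2-WT alone. Wnt10a had 4 regions, with 12, 14, 17 and 16 tags in Msx2-WT, of which the last 2, 3253 and 11707 bases inside the gene, were also peaks in replicate 2 with 17 and 10 tags, and none was a peak in replicate 1. The Wnt10a gene was therefore not closed in Msx2-KO replicate 2. Fzd7 had a region 3285 bases upstream with 26 tags in Msx2-WT, no listed summit in replicate 1 and 14 tags below the limit in replicate 2. Wnt7b had 4 regions in Msx2-WT, of which 2, 4166 and 28862 bases inside the gene with 11 and 19 tags, were peaks in Msx2-WT alone, the latter with 5 tags below the limit in replicate 2. Wnt3, a ligand of the canonical branch, had its only region 20793 bases inside the gene, with 9 tags in Msx2-WT and 3 below the limit in replicate 2.

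The remaining regions in Msx2-WT alone held from 9 to 16 tags there. They were at Wnt5b (9 tags, 4 below the limit in replicate 2), Wnt8a (10, 3 below the limit in replicate 2), Wnt9a (9, 4 below the limit in replicate 2), Wnt10b (10) and Wnt11 (9), and, among receptors, an intron of Fzd6 (11) and of Lrp5 (16). The regions of receptors shared by all 3 libraries outside promoters included introns of Lrp6 with 15, 11 and 22 tags and with 9, 8 and 16 tags. An intron of Lrp5 (chr19:3668398-3670026) held 42, 13 and 31 tags, with ratios to Msx2-WT of 0.647 (0.319 to 1.23) and 0.707 (0.43 to 1.15), whereas the Lrp5 promoter had a peak in replicate 2 alone (9 tags). Fzd1 had a region 9752 bases upstream with 26, 12 and 33 tags, with ratios of 0.965 and 1.22. A region 4078 bases upstream of Fzd3 (15, 7 and 9 tags) is the promoter of Fbxo16, and a Wnt5b intron region (11, 9 and 17 tags) is that of Fbxl14, so that these shared regions cannot be credited to Fzd3 and Wnt5b.

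Short motifs were searched within 100 bases of the strongest summit of each region, on both strands. The TCF/LEF motif CTTTGAT was found at 0 of 61 member regions and at 2.66% of all regions, and CTTTGAA at 2 of 61 (an Lrp5 upstream region and a Wnt3a intron) and 3.7% of all. The homeobox motif TAATTG, which MSX proteins can bind, was found at 2 of 61, the Fzd2 promoter and a region upstream of Wnt16, against 7.26% of all. The AP-1 motif TGACTCA was found at 4 of 61 against 8.96%, with Lrp5, Wnt5a, Wnt7b and Wnt8a as the genes. Within promoters, the GC box GGGCGG was found at 24 of 30 member regions (80.0%) against 57.9%, and CCAAT at 8 of 30 (26.7%) against 30.3%. These 30 include the promoters of Fbxo16 and Fbxl14. Start sites were CpG-rich in 83.9% of members against 44.3% of all genes, and the part of composition in the GC box share was not tested. The TCF/LEF pair share a stem, and CCAAT and TAATTG can overlap on opposite strands, both being found at the Fzd2 promoter and upstream of Wnt16. A match is a description of the sequence only. The AP-1, CCAAT and GC box motifs were added after the sequences had been seen.

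Other genes of the pathway are described by counts alone, to be read against the shares of all genes, 47.1%, 37.9% and 53.7%. Of 39 genes, 23, 21 and 28 had a promoter peak in Msx2-WT, replicate 1 and replicate 2. Of the same 39, 19 were open in all 3 libraries, against 35.2% of all genes, and 11 in none, against 43.8%. In Msx2-WT alone 0 were open, against 2.11% of all genes. The cytoplasmic core, which passes the signal to beta-catenin, was open in 9, 8 and 10 of 10 cases, and Gsk3b, the kinase that marks beta-catenin for destruction, held 97, 78 and 103 tags. The TCF/LEF factors were open in 3, 2 and 4 of 4 cases, with Tcf7l1, a repressor known from HFSCs, at 21, 16 and 28 tags. Of the secreted inhibitors 3, 3 and 3 of 10 were open: Sfrp1 (16, 9 and 33 tags), Wif1 (11, 6 and 11) and Dkk3 (10, 6 and 9). Both ubiquitin ligases that remove Frizzled receptors from the surface, Znrf3 (32, 13 and 24 tags) and Rnf43 (41, 7 and 15), were open in all 3 libraries, and alternative Wnt receptors in 2, 2 and 3 of 4 cases.

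Of the 39 genes of these lists, 2 were open in each Msx2-KO library and closed in Msx2-WT, against 2.32% of all genes. They were Porcn and Lgr5, which are named for this state alone. Porcn, the enzyme that attaches the lipid to Wnt proteins, held 5 tags in replicate 1, as many as the weakest peak of that library, and 14 in replicate 2. Wls, which carries Wnts to the cell surface, was open in all 3 libraries with 21, 22 and 45 tags. Lgr5, an R-spondin receptor and a marker of the lower bulge and hair germ, held 6 and 19 tags in the Msx2-KO libraries, and its region held 4 summits in Msx2-WT against 6 and 12. R-spondins, which raise the response to Wnts, and their Lgr receptors were open in 3, 2 and 4 of 7 cases, with Lgr4 at 33, 39 and 72 tags, Lgr6 at 26 and 17 tags in Msx2-WT and replicate 2, and Rspo1, Rspo2 and Rspo4 closed in all 3 libraries.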

How the data were processed

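Omni-ATAC-seq of sorted HFSCs was analysed from 3 peak lists, 1 per library, with samples grouped by their labels. Per the study's methods and the labels' processing notes, reads were trimmed, aligned to GRCm38 (mm10) with BWA and stripped of mitochondrial reads, and the authors called peaks per library with MACS2, keeping duplicates, which inflates tag numbers. The authors deposited for each summit a fold over the local background, a −log10 p and a −log10 q, and a score that was not used. The deposited lists reach down to a p-value of 0.01, so summits with a −log10 q above 2.0 were kept as peaks. Library depth is not stated in the lists. Tag numbers were solved from fold and −log10 p, giving a whole number for 99.94%, 99.94% and 99.96% of summits (Msx2-WT, Msx2-KO replicates 1 and 2), and this step was tested on simulated data. The library number in the peak names of Msx2-KO replicate 1 differs from that in its label.

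Start sites were those of protein-coding transcripts in basic GENCODE M21. Promoter windows were 1500 bases, gene regions ran from 10 kb before the gene to its end, and peaks sharing at least 1 base were merged. Intervals are 95% Poisson for tags and exact conditional intervals for ratios. All members were accounted for, and values in every library were given for Lrp5, Lrp6, members open in all 3 libraries and members or regions in which Msx2-WT stood apart from each Msx2-KO library. The members, gene lists and comparisons were chosen with earlier results of these data known. The alternatives tried were a stricter −log10 q (at least 5), every deposited peak, lists of equal length (19450 summits), thinning to the shallowest background, windows of 500 and 3000 bases, the outermost start alone, any overlap of the peak, 2 or 50 kb before the gene and leaving out each Msx2-KO library. Thinning kept tags at random in a single draw, and weak peaks could fall out otherwise in another draw. RNA-seq of the study was not used here. Tools were numpy 2.4.6, pysam 0.24.0, scipy 1.17.1, pandas 2.3.3 and matplotlib 3.10.9 under Python 3.11.15.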

Additional observations from a re-analysis of the deposited data

How the results depend on the processing

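Receptors were open more often than ligands under every alternative, and receptor promoter counts stayed within 1.5 times of their value except under the stricter CpG limits, whereas ligand counts moved. Values run in the order Msx2-WT, Msx2-KO replicate 1 and Msx2-KO replicate 2. At a −log10 q of at least 5, ligands with a promoter peak numbered 2, 0 and 2, ligand region summits 8, 1 and 6, receptor region summits 17, 10 and 17, and 1 member (Fzd10) was open in Msx2-WT alone. When every deposited peak was kept, 12 ligands in Msx2-WT and 4 in replicate 1 had a promoter peak, ligand regions held 62, 12 and 50 summits, receptor regions 40 in Msx2-WT and 42 in replicate 2, 1 member (Wnt2b) was open in each Msx2-KO library but closed in Msx2-WT, and 1 (Fzd10, lower in Msx2-KO) was over 2-fold apart. With lists of equal length, ligands numbered 3 in Msx2-WT and 2 in replicate 2, ligand region summits 9 and 6, and receptor region summits 17 and 16. After thinning, ligands numbered 3 in Msx2-WT and 5 in replicate 2, ligand region summits 8 and 10, receptor region summits 11 in Msx2-WT, and 1 member (Fzd6) was open in each Msx2-KO library alone. A window of 500 bases left 2 ligands in Msx2-WT and 0 in replicate 1. With 50 kb before the gene, ligand regions held 62, 13 and 54 summits and receptor regions 43, 27 and 55. Under the stricter CpG limits 5 receptors were open in replicate 1, since fewer genes met the limits.

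Leaving out 1 Msx2-KO library loosened the rule that both must differ. Members open in Msx2-KO and not in Msx2-WT ranged from 0 to 7, the latter without Msx2-KO replicate 1 (Wnt2b, Wnt4, Wnt5a, Wnt5b, Wnt9b, Fzd9 and Lrp5). Members open in Msx2-WT alone ranged from 3 to 7, the latter without Msx2-KO replicate 2 (Fzd3, Wnt7b, Wnt9a and Wnt11 added). Promoters over 2-fold apart ranged from 0 to 1 (Fzd5, higher without replicate 2). Regions over 2-fold apart, an alternative chosen after seeing the data, numbered 3 without either library and included the Wnt4 intron in both cases. The causes of the other movements were not tested. No value separates genotype from batch, and thinning matched the background of the libraries, not the tags at shared promoters. No paired analysis was possible because the groups share fewer than 2 replicate numbers.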
